A study of Mus musculus with 8 samples.

Results

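The genes described here are those of the sperm flagellum: its sheath, outer dense fibres, mitochondrial sheath and axoneme, together with the intraflagellar transport (IFT) proteins that build it. They were chosen by name, as every probe set whose gene symbol was on a list of 41 genes. Of these, 38 genes had a probe set under their symbol, and together they accounted for 66 of the 45101 probe sets of the array. Fscb, Rsph9 and Ift27 had none under that symbol. The study had profiled whole testis of mice at postnatal day 23, C57/Bl6 in background, on 8 Affymetrix Mouse430_2 arrays with 1 sample on each. The 5 controls (replicates 1, 2, 4, 6 and 7) are labelled wildtype, although the study's text speaks of heterozygous Ctcfl del/+ littermates. The 3 mutants (replicates 3, 5 and 8) are labelled Ctcfl mutant and are, in that text, homozygous for Ctcfl del, an allele that lacks exons 1 to 8 and keeps a GFP sequence. CTCFL (BORIS) is the germ cell relative of the chromatin organiser CTCF, and the question was what its loss does to testis transcripts at an age which, in the study, precedes germ cell loss. Ctcfl itself was not analysed here. The labels do not say that each sample came from a separate animal, so the p-values measure only the spread between these samples.

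The flagellum is assembled in the haploid spermatid around an axoneme of doublet microtubules that carries dynein arms, radial spokes and a central apparatus. Tektins line the doublets. Outer dense fibres accompany the axoneme along most of its length, a mitochondrial sheath wraps the midpiece, and a fibrous sheath encloses the principal piece, where it anchors signalling and glycolytic enzymes. IFT particles, made of the subcomplexes IFT-B and IFT-A, carry building blocks along growing cilia and flagella. Many axonemal and IFT transcripts are already present in spermatocytes, whereas those of the accessory sheaths are known as products of spermatids. Mouse testes at the age studied here are in the first wave of spermatogenesis, in which the first round spermatids are only just maturing.

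Wildtype 7 and mutant 8 stood apart from the other 6 arrays, so results are given with and without them. Markers of round and elongating spermatids were higher in both arrays. In 13 of the 14 spermatid genes found, such as the protamine Prm1 and the transition protein Tnp1, both arrays lay above the other 6. The summed log2 level of the spermatid list was 14.99 in wildtype 7 and 14.58 in mutant 8, against 13.29 to 13.60 in the other wildtype arrays and 13.11 and 13.43 in mutants 3 and 5. The exception, Acr, the acrosomal protease acrosin, ranged over only 0.14. Fat genes moved with the same arrays, in 7 of 10 genes, and their summed level was 11.67 and 11.72 against 9.66 to 10.17. Among the fat genes Car3 read 10.02 in wildtype 7 and 10.00 in mutant 8 against 5.83 to 7.80 in the other arrays, and 1 probe set of Fabp4 (1417023_a_at), chosen after its values were seen, read 9.61 and 9.16 against 5.12 to 6.96. Leptin (Lep) read 3.82 to 4.05. Spermatocyte markers, with a summed level of 15.12 to 15.36, varied little. The summed level of 5 multiciliated cell markers was 9.17 in mutant 3 and 9.64 in mutant 8, with 9.37 to 9.51 in the other arrays. Most of that sum was Foxj1, at 8.52 in mutant 3 and 9.18 in mutant 8, so it does not describe the list as a whole. Ccno, Cdc20b and Scgb1a1 lay below the median level of the array, and Tff3 was lowest in mutant 8 (6.69). In whole testis, fewer cells of a type and less RNA per cell cannot be told apart.

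The flagellar genes differed widely in their spread between arrays, and none differed between genotypes past the test. For each gene a main probe set was taken, the one with the highest mean level among those without a cross-hybridisation suffix where there was one. By these, the sheath and fibre genes Akap4, Akap3, Ropn1, Cabyr, Odf1, Odf3 and Smcp and the tektin Tekt5 varied over more than 2-fold between arrays. Rsph1, Spag6, Spag16 and the IFT genes stayed within 0.06 to 0.32 on the log2 scale by their main probe sets. Other probe sets of Spag16 and Ift81 ranged up to 0.70 and 0.86, at levels below the median of the array. With limma (Benjamini-Hochberg adjustment over all probe sets) 0 of 66 member probe sets differed between mutant and wildtype testis at an adjusted p of 0.05, as did 0% of all probe sets, and the smallest adjusted p among members was 1.0. At an unadjusted p of 0.05 the members again gave 0 of 66, against 3.47% of all probe sets. The mutant and wildtype values did not overlap in 2 of the 66, against 2.70% of all probe sets. The median difference over the 66 was -0.013 on the log2 scale, with 28 higher and 38 lower in mutant testis, and the median over all probe sets was 0.0032. It moved between -0.070 without mutant 8 and 0.061 without mutant 3, and was 0.025 without wildtype 7.

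A range of more than 1 on the log2 scale, that is more than 2-fold between the lowest and the highest array, was found in 16 of the 66 member probe sets (24.2%), against 3.49% of all probe sets. Counted once per gene, it was 8 of 38 (21.1%), and the share was 4.71% among the probe sets above the median level of the array. Wildtype 7 and mutant 8 both lay above the other 6 arrays in 31 of the 66, against 8.60% of all probe sets. Without these 2 arrays, 0 of the 66 had a range above 1, beside 0.827% of all probe sets, so the 0 is close to the background. Mutant 3 was the lowest array in 29 of the 66, against 12.2% of all probe sets. Members just above the limit were Tekt5 with a range of 1.07 and Akap3 with 1.36, and the nearest below were Dnajb13 with 0.84 and Tekt4 with 0.67.

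**Figure D1:**
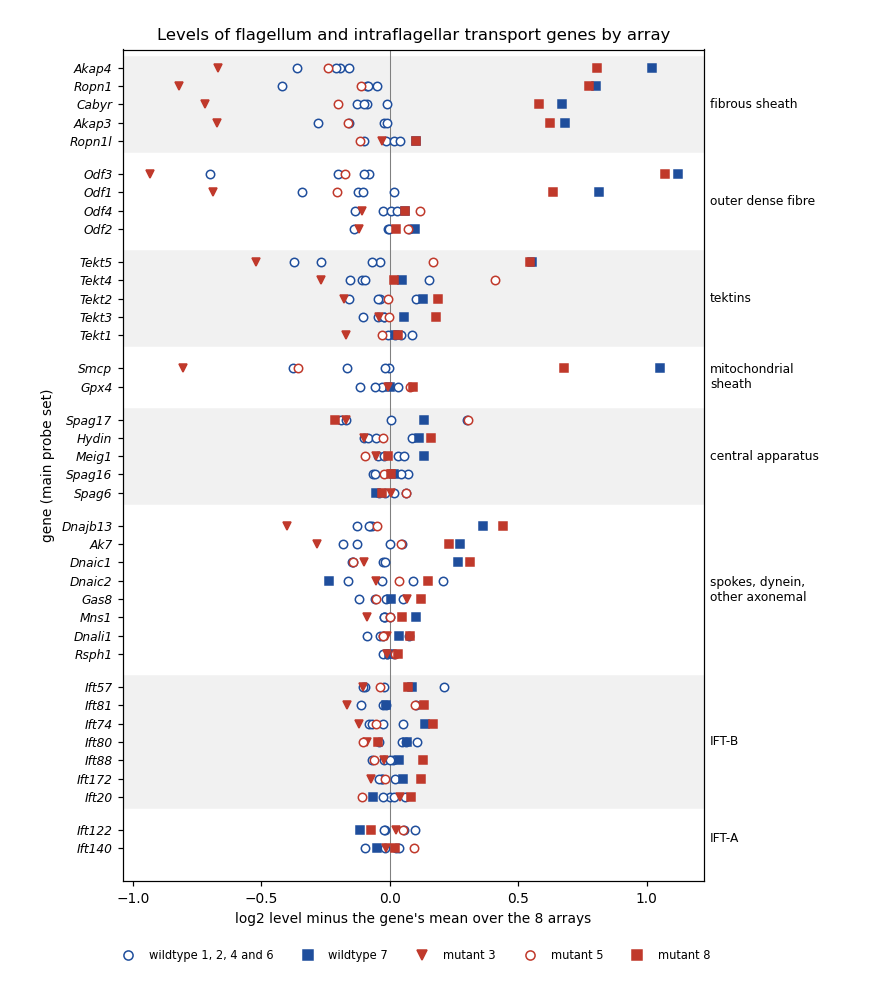
Log2 level of each gene's main probe set in each of the 8 arrays, minus the gene's mean over the arrays, with genes ordered by role and by range. Wildtype 7 and mutant 8 lie to the right for Akap4, Ropn1, Cabyr, Akap3, Odf3, Odf1, Tekt5 and Smcp, mutant 3 lies to the left, and the IFT genes stay close to 0.

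The promoters of the genes that varied most are shown beside those of Ropn1l and Ift20, which varied little, since base composition was a feature that the choice of genes had not used. RefSeq windows (GRCm38.p6) were available for 32 of the 38 genes, 44 windows in all, and the 250 bases before the start are printed 5′ to 3′ on the gene's strand. They lie at chrX:7067265-7067514 (+) for the first of the Akap4 starts, chr16:34650961-34651210 (+) for Ropn1, chr7:140847666-140847915 (+) for Odf3, chr3:92589074-92589323 (-) for Smcp, chr15:31453690-31453939 (-) for Ropn1l and chr11:78536111-78536360 (+) for Ift20. Capitals mark 2 motifs, searched on both strands: the cAMP response element core TGACGT and the RFX half-site GTTGCC, named for the factors CREM and RFX that are known to act on spermatid and cilium genes.
Akap4: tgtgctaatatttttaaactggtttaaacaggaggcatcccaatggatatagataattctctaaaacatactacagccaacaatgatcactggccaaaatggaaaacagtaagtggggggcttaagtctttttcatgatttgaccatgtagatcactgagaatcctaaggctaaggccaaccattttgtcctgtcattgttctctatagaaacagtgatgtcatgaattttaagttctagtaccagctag
Ropn1: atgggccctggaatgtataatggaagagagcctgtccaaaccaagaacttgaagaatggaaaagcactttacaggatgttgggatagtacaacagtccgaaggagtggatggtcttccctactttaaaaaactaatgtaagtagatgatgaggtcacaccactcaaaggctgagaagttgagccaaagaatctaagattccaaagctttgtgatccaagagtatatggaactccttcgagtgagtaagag
Odf3: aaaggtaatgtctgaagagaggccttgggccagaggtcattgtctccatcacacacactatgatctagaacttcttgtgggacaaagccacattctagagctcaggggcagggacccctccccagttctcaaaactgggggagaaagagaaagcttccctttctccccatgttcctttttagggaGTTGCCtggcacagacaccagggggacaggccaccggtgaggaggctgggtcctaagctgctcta
Smcp: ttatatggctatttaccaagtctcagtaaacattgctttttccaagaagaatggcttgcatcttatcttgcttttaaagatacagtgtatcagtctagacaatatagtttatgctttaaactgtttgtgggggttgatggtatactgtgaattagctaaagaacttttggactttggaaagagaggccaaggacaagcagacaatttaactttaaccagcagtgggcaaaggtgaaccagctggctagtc
Ropn1l: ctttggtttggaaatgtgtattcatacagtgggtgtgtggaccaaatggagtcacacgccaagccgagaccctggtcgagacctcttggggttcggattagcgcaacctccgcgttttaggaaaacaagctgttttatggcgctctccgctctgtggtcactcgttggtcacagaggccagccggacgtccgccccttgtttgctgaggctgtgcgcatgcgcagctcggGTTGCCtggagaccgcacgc
Ift20: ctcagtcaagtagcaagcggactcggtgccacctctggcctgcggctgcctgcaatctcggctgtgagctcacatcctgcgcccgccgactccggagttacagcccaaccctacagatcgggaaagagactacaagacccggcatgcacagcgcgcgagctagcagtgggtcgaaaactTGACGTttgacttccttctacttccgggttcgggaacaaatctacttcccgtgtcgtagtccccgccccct

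The 6 genes with a range above 1 and a promoter window (Akap3, Akap4, Ropn1, Odf3, Tekt5 and Smcp) had a median G+C content of 42.4%, from 38.0% in Smcp to 53.6% in Odf3, and between 0 and 4 CpG dinucleotides in these 250 bases. The 26 genes with a smaller range had a median of 56.0%, from 45.6% in Dnajb13 to 70.7% in Odf2, and 2 to 28.5 CpG, where several starts of a gene were averaged. Over all 32851 promoter windows the median was 52.4% with 6 CpG. Ropn1, with 42.0% and 2 CpG, and its close relative Ropn1l, with 57.6% and 18 CpG, lay on either side of that median. The groups overlapped, since Odf3 and Tekt5 at 52.0% were richer than 7 genes that varied less. The cAMP response element core was in 0 of the 6 and 6 of the 26 genes, against 6.47% of all windows. The RFX half-site was in 1 of the 6 genes, at position -65 of Odf3, and in 11 of the 26 genes, against 10.4% of all windows. Ropn1l was one of the 11, with a match at -20. The match in Ift20 was a cAMP response element core at -71. Genes with several starts had more windows in which a match could fall, so these counts are not on the same footing as the share of windows.

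**Figure D2:**
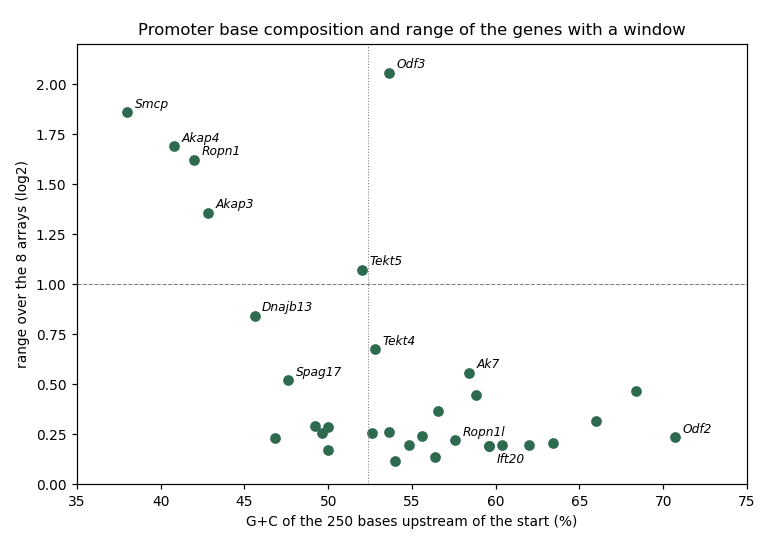
G+C content of the 250 bases upstream of the start (mean over the starts of a gene) against the range of the gene's main probe set over the 8 arrays, for the 32 genes with a window. The dashed line is a range of 1, the dotted line the median of all windows, 52.4%, and the 4 genes lowest in G+C (Smcp, Akap4, Ropn1 and Akap3) all have a range above 1.

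The fibrous sheath genes other than Ropn1l varied widely and together across arrays. In the following, levels are log2 values in the order wildtype 1, 2, 4, 6 and 7, then mutant 3, 5 and 8. Akap4 (1451661_at), the most abundant anchoring protein of the fibrous sheath, read 9.53, 9.69, 9.68, 9.73 and 10.91 in wildtype and 9.22, 9.65 and 10.70 in mutant testis. Wildtype 7 was thus 1.25 above the mean of the other wildtype arrays (2.38-fold), and mutant 8 was 1.26 above the other mutants (2.40-fold). The groups overlapped, with means of 9.91 ± 0.57 (SD, n = 5) and 9.86 ± 0.76 (SD, n = 3) and a difference of -0.05 (SE 0.37), which was 0.26 without mutant 3 and -0.47 without mutant 8. Ropn1 (1422543_at), which encodes ropporin, a sheath protein that docks on such anchors, read 10.18, 10.51, 10.52, 10.55 and 11.40 and then 9.78, 10.49 and 11.38. The same arrays were at both ends, and the difference was -0.08 (SE 0.34). Its relative Ropn1l (1423959_at), found in the radial spoke, read 13.51, 13.43, 13.54, 13.57 and 13.63 and then 13.50, 13.41 and 13.63. Here too wildtype 7 and mutant 8 were highest, but the whole range was 0.22 and the difference -0.02 (SE 0.07). In its second probe set (1457627_x_at) wildtype 4 was the highest array at 10.64, with wildtype 7 at 10.51 and mutant 8 at 10.48.

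Akap3, a second anchoring protein of the sheath, and Cabyr, a calcium-binding sheath protein, had ranges of 1.36 and 1.39 and differences of -0.11 (SE 0.28) and -0.18 (SE 0.27). All 5 fibrous sheath genes were lower in mutant testis by their main probe sets, with a median of -0.08, and 10 of their 11 probe sets were lower, none past the test. That direction depended on single arrays. The median over the 11 probe sets was -0.11 with all arrays, 0.17 without mutant 3, the lowest array for 4 of the 5 genes, 0.032 without wildtype 7 and -0.48 without mutant 8. Without wildtype 7 the difference was 0.20 for Akap4 and 0.11 for Ropn1. The 3 probe sets of Akap4 had ranges of 1.69 to 1.95, and the 3 of Cabyr had ranges of 1.17 to 1.39 with differences from -0.18 to 0.03.

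Outer dense fibre genes divided into a pair that varied and a pair that did not. Odf3 (1420446_at), a component of the fibres, had the widest range of the main probe sets, 2.06 on the log2 scale or 4.16-fold, with values of 8.64, 9.14, 9.26, 9.24 and 10.46 and then 8.41, 9.17 and 10.41. Wildtype 7 was 1.39 and mutant 8 was 1.63 above the rest of their own groups. Odf1 (1422585_at), the major small heat shock-like protein of the fibres, read 10.79, 11.00, 11.02, 11.14 and 11.94 and then 10.44, 10.92 and 11.76. Both genes again had mutant 3 at the bottom, and their differences were -0.02 (SE 0.46) and -0.14 (SE 0.31). Without mutant 3 these were 0.44 and 0.16, without wildtype 7 they were 0.26 and 0.05, and without mutant 8 they were -0.56 and -0.50. Odf2 (1454735_at), which also serves at the centriole of other cells, read 11.00, 11.00, 10.87, 11.08 and 11.10 and then 10.89, 11.08 and 11.03, with no array apart and a difference of -0.01 (SE 0.08). Its 5 probe sets had differences from -0.04 to 0.06, and 2 of them also matched another gene. In 1426040_a_at and 1435216_a_at wildtype 7 and mutant 8 did lie above the other arrays, within ranges of 0.25 and 0.46. Odf4, a membrane protein of the tail, had a range of 0.25 and a difference of 0.04.

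Among the tektins, the filament proteins of the doublet microtubules, Tekt5 varied most. Tekt5 (1429355_at) read 8.35, 8.24, 8.58, 8.55 and 9.17 and then 8.10, 8.78 and 9.16, with wildtype 7 and mutant 8 on top and a difference of 0.10 (SE 0.25), which was 0.40 without mutant 3, 0.25 without wildtype 7 and -0.14 without mutant 8. Tekt4 (1453121_at) did not follow these arrays, with 11.05, 11.06, 11.00, 11.31 and 11.21 and then 10.89, 11.57 and 11.17. Its highest value was that of mutant 5 and its lowest that of mutant 3, a gap of 0.67 within the mutant group, and the difference was 0.08 (SE 0.14). Tekt1 (1432075_a_at) read 11.74, 11.65, 11.67, 11.70 and 11.67 and then 11.48, 11.63 and 11.69, so that mutants 3 and 5 lay below every wildtype array and mutant 8 did not. The difference was -0.09 (SE 0.07, exact two-sided permutation p = 0.143). Tekt2 and Tekt3 had ranges of 0.37 and 0.28 and differences of 0.00 and 0.07.

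The mitochondrial sheath genes were Smcp and Gpx4. Smcp (1418358_at), a cysteine-rich protein of the sperm mitochondrial capsule, read 10.19, 10.41, 10.57, 10.55 and 11.62 and then 9.77, 10.21 and 11.25. It ranged over 1.86, wildtype 7 being 1.19 and mutant 8 being 1.26 above the rest of their groups. Means were 10.67 ± 0.55 (SD, n = 5) and 10.41 ± 0.76 (SD, n = 3), and the difference of -0.26 (SE 0.37) became 0.06 without mutant 3, -0.02 without wildtype 7 and -0.68 without mutant 8. Gpx4 (1451695_a_at), a selenoenzyme that becomes a structural protein of the same capsule, read 13.34, 13.25, 13.31, 13.40 and 13.37 and then 13.36, 13.45 and 13.46. Its range was 0.21 and its difference 0.09 (SE 0.06). Gpx4 is used by many cell types, and its second probe set gave -0.03.

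The axonemal genes varied little, with some exceptions. Spag17 (1440472_at), of the central apparatus, read 8.99, 9.28, 8.79, 8.81 and 9.11 and then 8.81, 9.29 and 8.77, in which wildtype 2 and mutant 5 were the highest. Its difference was -0.04 (SE 0.15) and turned to 0.08 without wildtype 7 and mutant 8. A second probe set of Spag17 (1459142_at) read 8.47, 8.50, 8.47, 8.40 and 8.57 and then 8.39, 8.39 and 8.28. All 3 mutant values were below all 5 wildtype values, by a difference of -0.13 (SE 0.07). The exact two-sided permutation p was 0.0357, the smallest that 5 against 3 arrays allow and the value that any lack of overlap gives. Hydin (1460106_at), a giant protein of the same structure, read 9.49, 9.50, 9.53, 9.67 and 9.70 and then 9.48, 9.56 and 9.75, with a difference of 0.02 (SE 0.08). Spag6 (1417528_at), a central apparatus protein whose Entrez ID RefSeq now names Spag6l, read 11.99, 11.91, 11.95, 11.89 and 11.88 and then 11.94, 11.99 and 11.90. Wildtype 7 and mutant 8 were here 0.06 below their groups, and the difference was 0.02 (SE 0.06). Spag16 and Meig1 had ranges of 0.14 and 0.23 and differences of -0.01 and -0.08.

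Of the spoke, dynein and other axonemal genes, Dnajb13 (1431119_at), a heat shock protein of the radial spoke, was the one that most followed wildtype 7 and mutant 8. It read 10.43, 10.48, 10.49, 10.47 and 10.92 and then 10.16, 10.51 and 11.00. The groups overlapped throughout, with a range of 0.84 and a difference of -0.0049 (SE 0.18). Ak7 (1430781_at), an adenylate kinase of cilia and flagella, read 10.37, 10.55, 10.42, 10.60 and 10.82 and then 10.27, 10.59 and 10.78, with both arrays highest and a difference of -0.01 (SE 0.13). Rsph1 (1417643_at), a protein of the spoke head, had the narrowest range of all members, 0.06, with 13.89, 13.89, 13.87, 13.91 and 13.89 and then 13.89, 13.92 and 13.93. The difference was 0.02 (SE 0.06). Its level was among the highest of the members, and the scale compresses differences near saturation. Whether that narrowed its range was not tested. Dnaic1, an outer arm intermediate chain, had a range of 0.46, wildtype 7 being 0.35 and mutant 8 being 0.44 above their groups. Dnali1, Dnaic2, Gas8 and Mns1 had ranges of 0.17, 0.45, 0.24 and 0.19 and differences from -0.02 to 0.07. Both probe sets of Dnaic1 agreed, at 0.04, whereas those of Dnaic2 gave 0.07 and -0.16. The first of these, the main probe set (1445408_at), read only 5.44 to 5.89, below the median level of the array. The second (1436296_x_at) read 9.38 to 9.95, with a range of 0.57.

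By their main probe sets the IFT genes were the most even group. The main probe sets of the 7 IFT-B genes ranged over 0.19 to 0.32, and those of the IFT-A genes Ift140 and Ift122 over 0.19 and 0.21. Ift57 (1418929_at) read 10.36, 10.59, 10.28, 10.28 and 10.47 and then 10.28, 10.35 and 10.45, with a difference of -0.04 (SE 0.09). The other wide one, Ift81 (1449407_at), which binds tubulin cargo together with Ift74, read 9.42, 9.29, 9.20, 9.30 and 9.30 and then 9.15, 9.42 and 9.45, with a difference of 0.04 (SE 0.09). The other probe sets of Ift81 gave -0.11 and 0.13, the latter with a range of 0.86 at a level below the median of the array. In neither main probe set, of Ift57 or of Ift81, was wildtype 7 the highest wildtype array. Ift20 (1451412_a_at), which also works at the Golgi, read 9.16, 9.22, 9.13, 9.18 and 9.10 and then 9.20, 9.05 and 9.24, with a difference of 0.01 (SE 0.07). Ift74, Ift88 and Ift172 had differences from -0.0049 to 0.024.

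Ift80 (1427568_a_at), an IFT-B subunit, was the only member whose main probe set did not overlap between genotypes. It read 10.72, 10.66, 10.67, 10.57 and 10.68 in wildtype and 10.52, 10.51 and 10.56 in mutant testis. The highest mutant value, 10.56, lay just below the lowest wildtype value, 10.57. Means were 10.66 ± 0.06 (SD, n = 5) and 10.53 ± 0.03 (SD, n = 3), a difference of -0.13 (SE 0.06) with an exact two-sided permutation p of 0.0357 and a limma adjusted p of 1.0. That permutation p follows from the lack of overlap for which the gene was named, so it is no further support. Over all probe sets 2.70% did not overlap. The difference lay between -0.15 and -0.11 under every alternative run, including those without wildtype 7 and mutant 8. Its other probe set gave -0.08 with an exact permutation p of 0.179, and its groups overlapped.

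The IFT-A genes Ift122 and Ift140 encode subunits of the particle that returns from the tip. Ift140 (1417255_at) read 12.66, 12.54, 12.62, 12.67 and 12.58 and then 12.62, 12.73 and 12.66, and Ift122 (1427239_at) read 11.06, 11.02, 10.94, 10.94 and 10.85 and then 10.99, 11.02 and 10.89. For Ift122 wildtype 7 and mutant 8 were the lowest arrays, 0.14 and 0.11 under the mean of the rest of their groups, the reverse of the sheath genes. The differences were 0.06 (SE 0.06) for Ift140 and 0.00 (SE 0.07) for Ift122, whose second probe set gave -0.11.

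**Figure D3:**
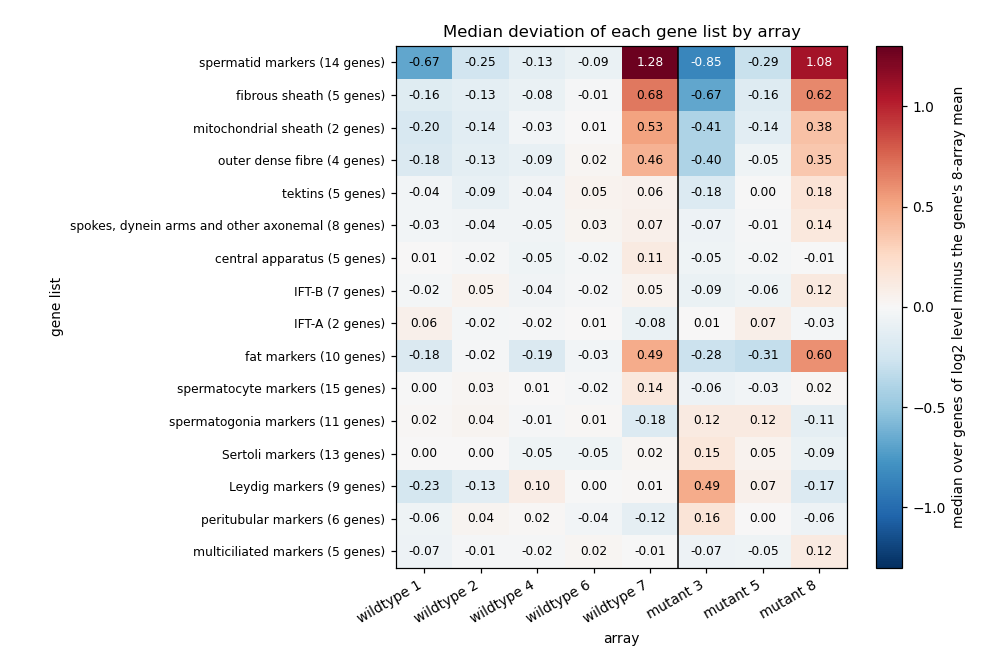
Median over the genes of each list of the log2 level minus the gene's mean over the 8 arrays, for the 8 role groups of flagellar genes and the marker lists of testis cell types, by array. The fibrous sheath stands at 0.68 in wildtype 7 and 0.62 in mutant 8, beside 1.28 and 1.08 for spermatid markers and 0.49 and 0.60 for fat markers, and IFT-A stands at -0.08 and -0.03.

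Set side by side, the role groups followed the spermatid markers to different degrees. In mutant 3, the array lowest in spermatid markers (-0.85), the fibrous sheath stood at -0.67, the mitochondrial sheath at -0.41 and the outer dense fibres at -0.40. There the tektins stood at -0.18, IFT-B at -0.09 and IFT-A at 0.01. Of the 2 mitochondrial sheath genes, Smcp was lowest in mutant 3 and Gpx4 was not, so their median describes neither. Of the 4 outer dense fibre genes, Odf1 and Odf3 were lowest in mutant 3 by their main probe sets, and Odf2 and Odf4 were not. Leydig (0.49), peritubular (0.16) and Sertoli markers (0.15) were highest in mutant 3. Spermatogonia markers stood at 0.12 in both mutant 3 and mutant 5, and by summed level they were highest in wildtype 2, at 13.73. Of the 19 spermatid probe sets 8 were lowest in mutant 3, Prm3 and Hils1 among them, whereas Tnp1 read 8.50 in mutant 3 and 8.20 in mutant 5. What part the spermatid, fat, somatic or spermatogonial content of an array had in these values was not tested.

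With the arrays that stood apart set aside, the differences of the sheath genes became more negative, though none passed after adjustment. With a block for the pair of wildtype 7 and mutant 8, limma put 9 of 66 member probe sets (13.6%) under an unadjusted p of 0.05, against 5.86% of all probe sets, and all 9 were lower in mutant testis. They were probe sets of accessory structures, 3 of Odf1, 3 of Akap4 and 1 each of Akap3, Cabyr and Smcp. For Smcp the difference was -0.42 (SE 0.12) with a limma adjusted p of 0.80. With both arrays left out, 4 of 66 (6.06%) remained under that limit, against 6.55% of all probe sets, again all lower. They were the main probe sets of Smcp and Cabyr, and 1 other probe set each of Akap4 (1419019_a_at) and Odf1 (1440821_x_at). The main probe sets of Akap4 and Odf1 did not reach the limit. By its main probe set Cabyr then differed by -0.38 (SE 0.13, limma adjusted p = 0.75). There mutants 3 and 5 at 9.59 and 10.11 were both below wildtype 1, 2, 4 and 6, at 10.19 to 10.30. Its other probe sets did not separate in this way. In 1430007_a_at mutant 5 at 7.46 was above these wildtype arrays, at 7.28 to 7.42, and the difference was -0.07. In 1451946_a_at mutant 5 at 9.94 was above wildtype 1 at 9.85 and wildtype 2 at 9.92, with a difference of -0.34. For Smcp the values still overlapped, since mutant 5 at 10.21 was above wildtype 1 at 10.19. Only 2 mutant arrays enter that comparison and mutant 3 is one of them. The block was formed from earlier expression results of the same arrays, so its p-values do not stand for an independent test. Between wildtype 7 and mutant 8 themselves the differences were -0.37 for Smcp, -0.21 for Akap4, -0.18 for Odf1, -0.09 for Cabyr and -0.05 for Odf3.

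**Figure D4:**
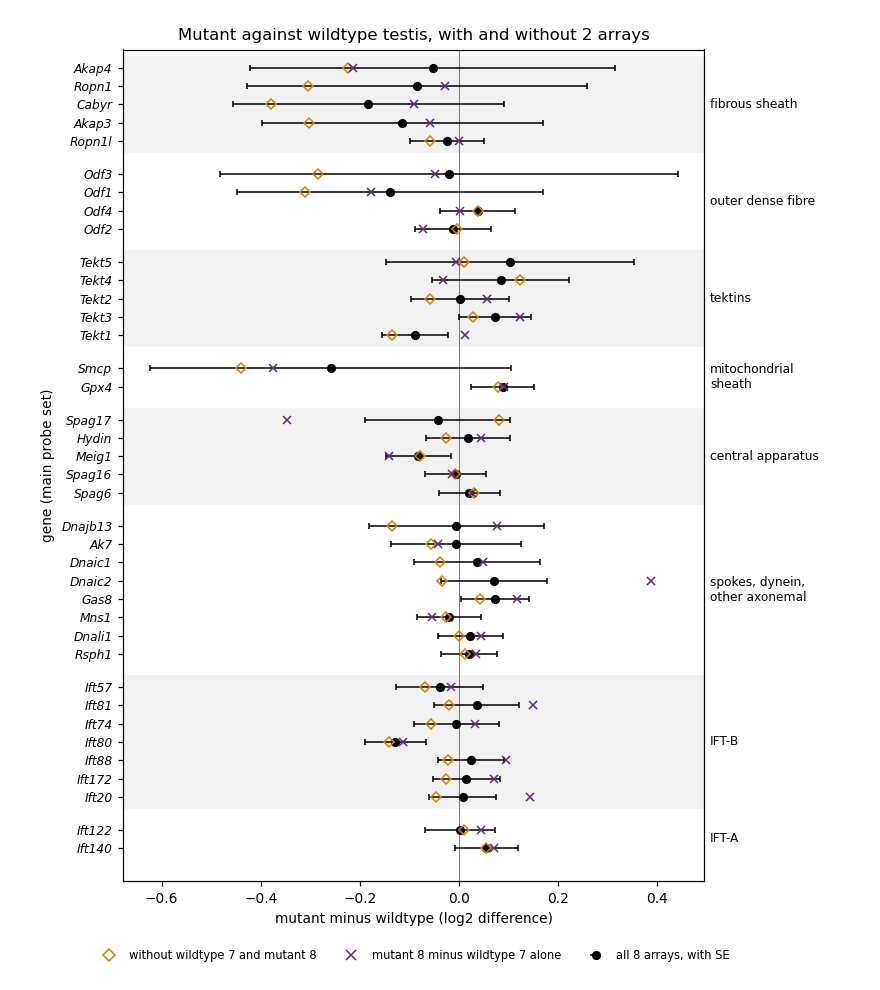
Mutant minus wildtype difference of each gene's main probe set on the log2 scale with all 8 arrays (points, with SE from limma), without wildtype 7 and mutant 8 (diamonds) and for mutant 8 minus wildtype 7 alone (crosses). Without the pair Smcp lies at -0.44 and Cabyr at -0.38, while the IFT genes lie within 0.1 of 0 in all 3 readings apart from Ift80 at -0.13, -0.14 and -0.11, and Ift81 and Ift20, whose pair differences are 0.15 and 0.14.

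Other genes of the flagellum and of IFT, taken from lists by role, gave few differences and none past adjustment (limma, every adjusted p = 1.0). Of 39 probe sets for 23 further dynein chains and assembly factors, 3 were lower and 0 higher at an unadjusted p of 0.05, against 3.47% of all probe sets, and their median difference was -0.01. Lrrc6, a dynein arm assembly factor, read 10.34, 10.28, 10.23, 10.31 and 10.51 and then 10.11, 10.14 and 10.17, a difference of -0.19 (SE 0.07). Tctex1d2, a dynein light chain, read 11.08, 11.12, 11.31, 11.04 and 11.44 and then 10.99, 11.00 and 10.85, a difference of -0.26 (SE 0.10). In both, all 3 mutants were below all wildtype arrays, which by itself fixes the exact permutation p at 0.0357. The groups did not overlap in 5 of the 39 probe sets, against 2.70% of all probe sets. Among 13 probe sets of 10 spoke and nexin link genes 1 was lower, and Iqub, a protein with an IQ motif, read 8.37, 8.25, 8.35, 8.16 and 8.93 and then 8.04 in each mutant, a difference of -0.38 (SE 0.15). Rshl2a, of the spoke, differed by 0.15 (SE 0.08).

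Of 29 probe sets for 14 central pair and motility genes, 2 were lower at that limit. The share of 3.47% over all probe sets also stands beside this count and those that follow. The 2 lower ones were probe sets of the tubulin gene Tubb2c, with differences of -0.30 (SE 0.09) and -0.19 (SE 0.08). They were named here after their values were seen and are shared with a related sequence. The central apparatus genes Spef2 and Stk36 did not reach that limit, at -0.14 (SE 0.08) and -0.15 (SE 0.09). Of 33 probe sets for 17 further fibrous sheath and dense fibre genes 0 passed it. The kinase gene Gsk3a and the sheath-associated Tsga10 came nearest, with -0.10 (SE 0.08) and 0.10 (SE 0.10). In this list 11 of 33 had a range above 1, against 3.49% of all probe sets. In 17 of them wildtype 7 and mutant 8 lay above the other arrays, against 8.60% of all probe sets. Gapdhs, the sperm-specific glycolytic enzyme of the fibrous sheath, was one of these, with 10.86 and 10.82 against 9.06 to 9.76. Of 50 probe sets for 30 other IFT, motor and Bardet-Biedl genes, 1 was higher and 1 lower. Dync2h1, the heavy chain of the IFT dynein, differed by 0.24 (SE 0.10), and Ttc30a1, an IFT-B subunit, by -0.18 (SE 0.08). Of 18 probe sets for 9 transcription factors of cilium and spermatid genes, 1 was higher. Taf7l, a testis paralog of a general transcription factor subunit, differed by 0.21 (SE 0.09), and Crem, which activates spermatid genes, by -0.10 (SE 0.06).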

How the data were processed

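Whole testis RNA of 5 wildtype and 3 mutant samples, taken at postnatal day 23, was profiled with 1 Affymetrix Mouse430_2 array each. Per the study's methods, the authors analysed intensities in Affymetrix's Expression Console with quantile normalisation and processed the scans in R/Bioconductor, with RMA for background correction and normalisation. Which of these made the table is not stated, and the deposited values used here are log2 levels per probe set and array. Array medians lay between 6.40 and 6.45. Other columns and tables hold the authors' own comparison (group means, differences, p-values and limma output) and were not used, and 0 columns of per-sample values were left aside. The scale compresses large differences near background and near saturation, and the number of arrays limits precision.

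Groups and replicate numbers came from sample titles. limma 3.58.1 under R 4.3.3 was run on all 45101 probe sets without a filter (lmFit, then eBayes), and its two-sided p-values were adjusted by Benjamini-Hochberg. The fit was tested on simulated data. Single probe sets were also compared by exact two-sided permutation of the 8 arrays, doubling the smaller one-sided p. Other steps used Python 3.11.15, numpy 2.4.6, pandas 2.3.3 and matplotlib 3.10.9.

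Members and lists were chosen with earlier results of these data known. Values in every array are given, in each of 8 role groups, for the 2 members with the widest and the 1 with the narrowest range of their main probe sets, and for members without overlap between genotypes or with an unadjusted p under 0.05. From the other flagellar lists the 2 genes with the smallest p per list are named, and Gapdhs was named after its values were seen. Gene names are those of the deposited table. Of 38 genes, 19 had several probe sets, and in 7 of these the differences lay on both sides of 0, and 22 of the 66 probe sets carried a cross-hybridisation suffix. Promoters came from a RefSeq table (GRCm38.p6).

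Alternatives were leaving out each array, leaving out or blocking wildtype 7 with mutant 8, median centring, repeated quantile normalisation, an intensity trend with robust prior, array weights, a one-way comparison without shared variance, only probe sets above the median level, 1 probe set per gene or the mean of all, and other thresholds.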

Additional observations from a re-analysis of the deposited data

Results flagged for a closer look

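Wildtype 7 stood farther from the other 4 wildtype arrays than the 95% limit of Dixon's test allows in 8 of 40 measures examined. Its level was the highest for Akap4 (10.91, the nearest array at 9.73), Smcp (11.62 against 10.57) and Dnajb13 (10.92 against 10.49). Its median deviation was the highest for the fibrous sheath (0.68 against -0.01), the mitochondrial sheath (0.53 against 0.01), the spermatocyte markers (0.14 against 0.03) and the fat markers (0.49 against -0.02), and it was the lowest for the spermatogonia markers (-0.18 against -0.01). The measures share genes and arrays and are not independent of each other. By chance about 1 in 20 groups passes this limit. Akap4, Smcp and Dnajb13 were among the measures because of their wide ranges, which were taken with wildtype 7 included. Their results are therefore no independent support. The mitochondrial sheath value comes from 2 genes, Smcp being one of them. The mutant group, with 3 arrays, was not examined in this way.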

How the results depend on the processing

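Under 18 alternatives 0 members passed an adjusted p of 0.05 with limma. At an unadjusted p of 0.05 the count of 0 became 9 with the block for wildtype 7 and mutant 8, 4 without both, 2 in the one-way comparison, 1 each with only probe sets above the median level, repeated quantile normalisation or the trend with robust prior, and 0 to 1 when an array was left out. No paired analysis was possible. The study's text speaks of littermates, but the labels do not name litters, and the replicate numbers run through both genotypes without repeating.

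Directions of single members were mostly unsettled. Leaving out 1 array gave differences from -0.12 to 0.13 for Ak7, -0.47 to 0.26 for Akap4, -0.23 to 0.19 for Dnajb13, -0.056 to 0.075 for Hydin, -0.026 to 0.040 for Ift122, -0.031 to 0.063 for Ift20, -0.086 to 0.010 for Ift57, -0.021 to 0.13 for Ift81, -0.50 to 0.16 for Odf1, -0.051 to 0.044 for Odf2, -0.56 to 0.44 for Odf3, -0.50 to 0.30 for Ropn1, -0.082 to 0.027 for Ropn1l, -0.68 to 0.063 for Smcp, -0.21 to 0.052 for Spag17, -0.0036 to 0.042 for Spag6, -0.094 to 0.24 for Tekt4 and -0.14 to 0.40 for Tekt5. Gpx4, Ift140, Ift80, Rsph1 and Tekt1 kept their sign. Without wildtype 7 and mutant 8 together Hydin gave -0.026, Ift20 -0.046, Ift81 -0.021, Spag17 0.081 and the IFT-B median -0.057. With array weights Hydin gave -0.0041, Ift20 -0.033 and Spag17 0.045, and with the block Hydin gave -0.0066. Repeated quantile normalisation turned Dnajb13 to 0.0022, and median centring and the mean of all probe sets turned Ift122 to -0.0014 and -0.055. Role group medians without 1 array ran from -0.058 to 0.0093 for IFT-B, from -0.055 to 0.063 for the mitochondrial sheath and from -0.091 to 0.12 for the tektins.

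No label names the block, which was formed from expression values. The 3 mutant arrays limit all comparisons. Probe set signal over background was not given in the table, so no limit of detection was set.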

Other observations

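Some dynein, central pair and transcription factor genes that are not members also had wide ranges, named here after their values were seen. Tctex1d1, a dynein light chain gene, read 7.93 in wildtype 7 and 7.26 in mutant 8 against 5.58 to 6.20 in the other arrays. Tuba8, an alpha tubulin, read 8.32 and 7.52 against 6.10 to 6.54. The ciliary transcription factor genes Rfx1 and Rfx3 were also highest in these arrays, Rfx1 at 8.84 and 8.96 against 7.92 to 8.37 and Rfx3 at 7.94 and 8.04 against 7.18 to 7.62. For Foxj1, the master regulator of motile cilia, mutant 8 was the highest array (9.18) and mutant 3 the lowest (8.52), while wildtype 7 read 8.89 within the other wildtype arrays.

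Rsph9 and Ift27, which had no probe set under these symbols, were found through their Entrez IDs as 1700027N10Rik and Rabl4. Rsph9 had 1 probe set with a range of 0.20 and a difference of 0.05, and the 3 of Ift27 had ranges of 0.18 to 0.32 and differences from -0.08 to 0.06.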
